A study of Mus musculus with 40 samples.

Results

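The scar that replaces infarcted myocardium was compared between day 3 and day 7 after infarction, gene by gene, in 8 of the 40 RNA-seq libraries of the series. The mice were adult C57BL/6 animals in which the left anterior descending coronary artery had been tied off permanently, and each library holds RNA from the injured region of 1 heart. The 4 day 3 libraries come from mice A4, A5, A7 and A8, and the 4 day 7 libraries from mice A7, A9, A10 and A12. A mouse label that recurs on another day belongs to another animal, so the comparison is unpaired. All groups used here share the ligation: the uninjured, remote region of the same 8 hearts, used for comparison, is tissue of infarcted hearts and not of healthy ones. The libraries were taken by region and day from the labels. The comparison itself and the gene lists were chosen with earlier results of these data known. Levels are the deposited RPKM (reads corrected for the length of the gene and for a library size whose scaling is not stated). Changes are differences of log2(RPKM + 1), day 7 minus day 3. Of 11450 genes in the table, 11390 reached 1 RPKM in 4 or more of the 40 libraries and were tested. The scar was dissected as a piece of tissue, so that in every result fewer cells of a type and less RNA per cell cannot be told apart.

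Healing of an infarct passes from an inflammatory to a proliferative phase. Neutrophils and blood-derived monocytes first clear dead cardiomyocytes, while surviving fibroblasts and endothelial cells divide. Fibroblasts then become contractile, matrix-secreting myofibroblasts, which lay down fibrillar collagen (types I and III, with type V as the collagen that starts and limits the fibril), proteoglycans, elastic fibres and cross-linking enzymes. The peptidyl chains are hydroxylated and folded in the endoplasmic reticulum, trimmed outside the cell and joined by lysyl oxidases, and the balance of metalloproteinases and their TIMP inhibitors sets how fast the matrix is turned over.

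The 8 scar libraries held 10966454 to 18264086 reads over the genes listed, recovered from the RPKM steps. Spearman correlation over genes was 0.962 to 0.989 between libraries of the same day and 0.854 to 0.911 between days. The 4 day 7 libraries did not stand equally far from day 3: mouse A10 had the day 7 levels nearest to day 3 for Arg1, Hmox1, Timp1, Spp1, S100a8 and S100a9, and those farthest from day 3 for Col1a1, Acta2, Apoe, Adgre1, Csf1r and Gpnmb. Gene models that read ribosomal RNA took 4.14% of summed RPKM in day 3 mouse A5 and 7.21% in day 7 mouse A12, and at most 1.09% in the other scar libraries. Sarcomere genes, which define the cardiomyocyte, summed to between 2758 and 5042 RPKM at day 3 and between 2087 and 3157 RPKM at day 7 in scar, against 22770 RPKM or more in every remote library, so all 8 scar libraries carried the label they were given. Xist, transcribed from the inactive X chromosome, exceeded 1 RPKM in 1 of 4 day 3 and 2 of 4 day 7 scar libraries, so the days differ in the mix of sexes. The labels name separate mice, and p-values measure the spread between mice of 1 experiment.

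Most tested genes of fibrillar collagens, proteoglycans, elastic fibres, fibroblasts and pericytes were higher in scar at day 7 than at day 3, and most of those of cell division, neutrophils, cytokines, glycolysis and endothelium were lower, by the counts given below. In limma's moderated test over the 20 scar libraries, with Benjamini-Hochberg adjustment and an adjusted p under 0.05, 3160 genes (27.7%) were higher and 3720 (32.7%) were lower at day 7, 60.4% in all. A difference of 1 or more on the log2 scale was reached by 412 rising genes (3.62%) and one of -1 or less by 399 falling genes (3.5%). The median change over all tested genes was -0.04. When the same RPKM were rescaled to each library's total of recovered reads, 2499 genes were higher and 4582 lower, so that rises made up 35.3% of calls in place of 45.9%. In the remote region of the same hearts 1186 genes (10.4%) were higher and 1656 (14.5%) lower, and 80 (0.702%) and 13 (0.114%) passed the log2 difference of 1 upwards and downwards. These remote counts were 781 and 924 without day 7 mouse A7 and 800 and 931 without day 3 mouse A8. Rescaled to recovered reads, 2800 genes were higher and 539 lower in the remote region, and rises made up 83.9% of calls in place of 41.7%. Every count of list members below should be read against these shares.

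**Figure D1:**
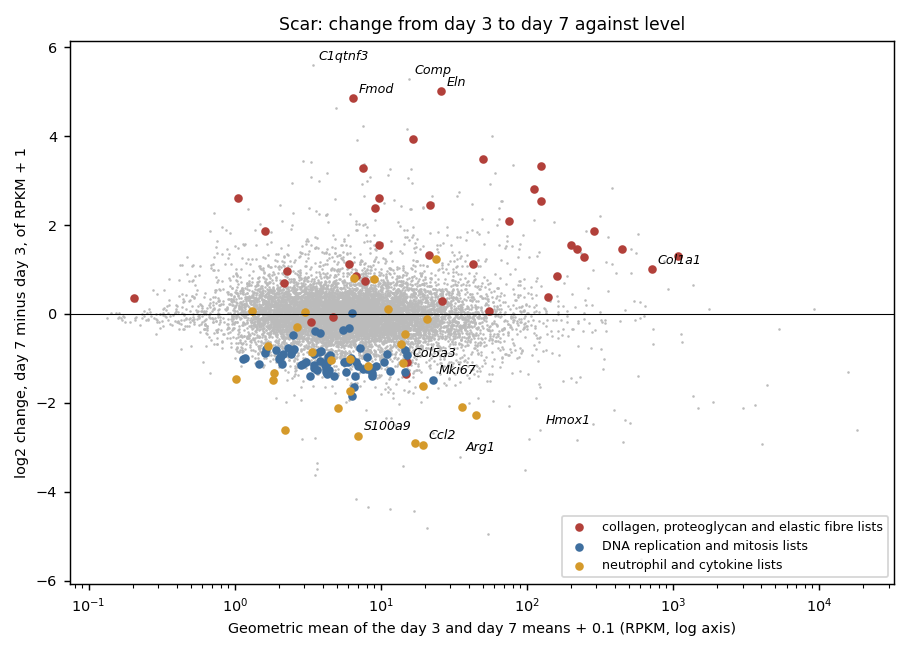
Change of each gene in scar from day 3 to day 7 (y axis, log2 of RPKM + 1) against its level (x axis, RPKM, log axis); each dot is 1 of 11390 tested genes, and 3 sets of gene lists are coloured. Genes of collagen, proteoglycans and elastic fibres lie mostly above 0, those of replication and mitosis lie below 0 in all but 1 case, and Comp, Eln and C1qtnf3 mark the upper edge.

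Among genes that reached 5 RPKM in 4 libraries of the comparison, the 12 largest rises were those of C1qtnf3, Comp, Eln, Fmod, Col8a2, Itgbl1, Sfrp2, Fbln5, Adamtsl2, Mfap4, Acan and Cpxm2. C1qtnf3, which encodes a secreted C1q and tumour necrosis factor related protein (chromosome 15, 10952332 to 10980150, GENCODE M21 model on mm10, as for all positions given), stood at 0.118, 0.0979, 0.0295 and 0.172 RPKM in day 3 mice A4, A5, A7 and A8 and at 91.7, 59.9, 53 and 25.4 RPKM in day 7 mice A7, A9, A10 and A12. Lack of overlap between the days was a condition of this choice, and values below are given in the same order of mice. On the log2(RPKM + 1) scale, which understates the change of genes near 0, the difference was 5.59 ± 0.36 (SE, limma adjusted p = 9.68e-10). Comp, a cartilage protein that binds collagen (chromosome 8, 70373558 to 70382066), went from 2.16, 1.99, 2.28 and 1.45 to 105, 95, 99.5 and 167 RPKM (5.28 ± 0.18, limma adjusted p = 9.13e-14). The day 3 values were low in all 4 mice, and day 7 mouse A12 was the highest of its group. Eln, the gene for elastin (chromosome 5, 134702593 to 134747323), went from 4.95, 4.11, 2.84 and 3.84 to 144, 148, 107 and 261 RPKM without overlap (5.01 ± 0.33, limma adjusted p = 9.08e-10). Fmod, the proteoglycan fibromodulin (chromosome 1, 134037254 to 134048277), which binds collagen fibrils and regulates their width, was at 1.07, 0.822, 0.445 and 0.638 RPKM at day 3 and at 55.3, 51.3, 41.2 and 48.2 RPKM at day 7 (4.85 ± 0.20, limma adjusted p = 9.66e-13). Col8a2, a chain of network-forming type VIII collagen, rose by 4.23, the integrin-like Itgbl1 by 4.17, the secreted Wnt antagonist Sfrp2 by 4.01, Fbln5, an elastic fibre assembly protein, by 3.94, and Mfap4, a microfibril-associated protein, by 3.48 on that scale. Their day 7 means were 41 ± 4.99, 72.5 ± 5.42, 238 ± 56, 71.6 ± 4.25 and 171 ± 10 RPKM (SD, n = 4). Adamtsl2, Acan (the cartilage proteoglycan aggrecan) and Cpxm2 rose by 3.91, 3.45 and 3.42.

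The 12 largest falls by the same rule were those of mt-Ti, Arg1, Ccl2, Ccl7, Ppbp, mt-Nd6, Chil3, S100a9, Hmox1, Mmp9, Apln and Cryab. Arg1, arginase, a macrophage enzyme that consumes arginine (chromosome 10, 24915221 to 24927484), fell from 78.9, 95.1, 184 and 67 to 6.15, 6.2, 24.7 and 8.91 RPKM. All day 7 libraries were below all day 3 libraries, and mouse A10 was the highest of the day 7 group (-3.21 ± 0.52, limma adjusted p = 5.7e-05). Ccl2, a chemokine that draws in monocytes (chromosome 11, 82035571 to 82037453), fell from 46.5, 51.6, 80 and 46.2 to 3.55, 8.11, 10.5 and 4.76 RPKM (-2.94 ± 0.26, limma adjusted p = 2.45e-08), and its neighbour in function Ccl7 from a mean of 49.8 ± 14.8 to 5.81 ± 2.06 RPKM. Hmox1, haem oxygenase, which breaks down haem (chromosome 8, 75093621 to 75100589), fell from 210, 296, 333 and 322 to 33.1, 38.6, 99.1 and 36.5 RPKM (-2.60 ± 0.25, limma adjusted p = 7.69e-08). As for the rises, lack of overlap between the days was required by the rule. Chil3, a protein of inflammatory monocytes and macrophages, was at a mean of 12.2 ± 2.5 and then 0.908 ± 0.214 RPKM, the platelet chemokine Ppbp at 10.8 ± 2.09 and 0.671 ± 0.196, and the vascular peptide Apln at 32.4 ± 9.25 and 4.75 ± 0.293 RPKM. Cryab, a small heat shock protein abundant in muscle, changed by -2.48 from a mean of 675 ± 94.8 RPKM. The mitochondrial models mt-Ti and mt-Nd6 also fell (-3.51 and -2.82), but both overlap genes on the opposite strand of the mitochondrial genome and the strand setting of the counting is not given, so that these values are uncertain. Without day 7 mouse A12 the change of mt-Nd6 was -3.41.

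**Figure D2:**
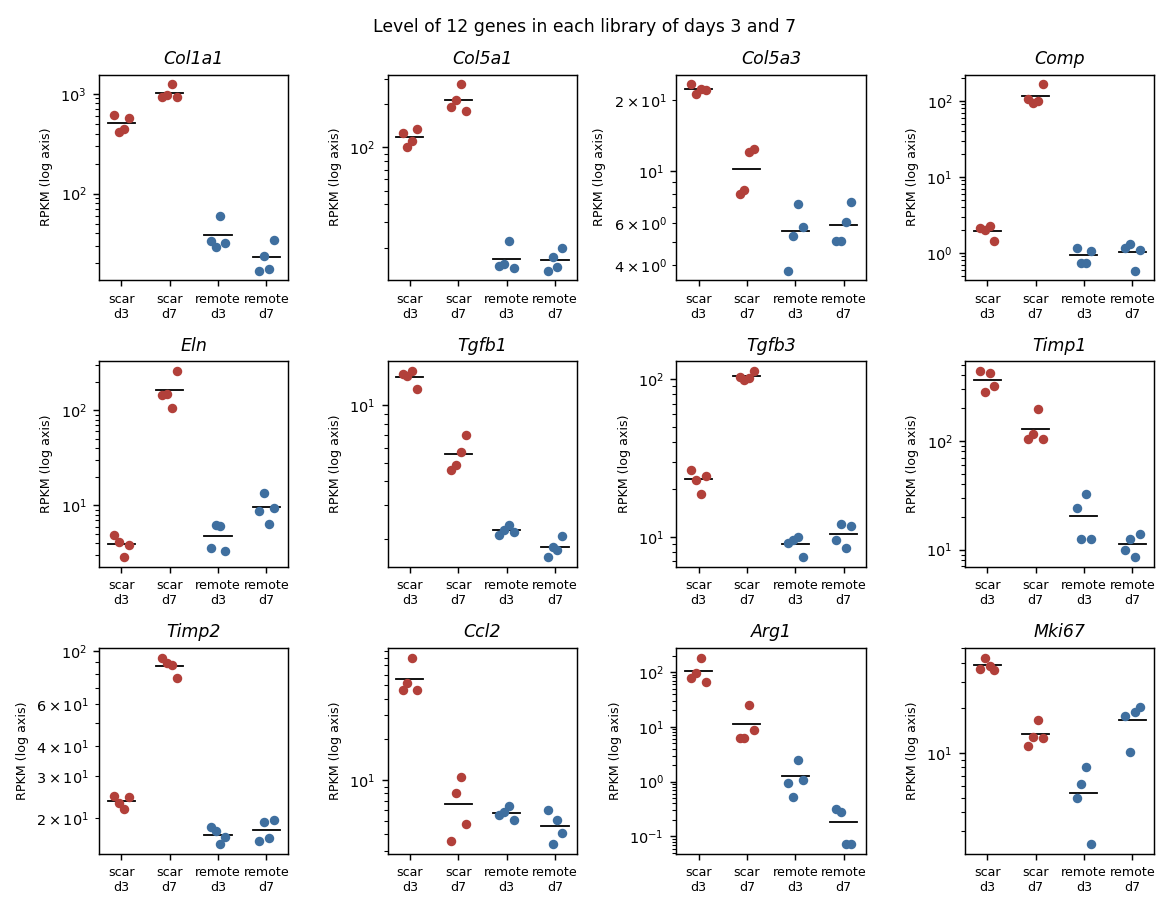
RPKM (y axis, log axis) of 12 genes in each of the 16 libraries of days 3 and 7 (d3, d7), scar in red and remote region in blue; dots are libraries and bars the mean of 4. In scar, Col1a1, Col5a1, Comp, Eln, Tgfb3 and Timp2 are higher at day 7, and Col5a3, Tgfb1, Timp1, Ccl2, Arg1 and Mki67 lower, without overlap of the days.

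Of the fibrillar collagens, 8 of 10 tested genes were higher and 1, Col5a3, was lower at day 7, with a median change of 1.16. In the remote region 0 of 10 were called by limma, none even at an unadjusted p under 0.05. Lack of a call there does not show lack of change, as Col1a1 was at -0.72 (limma adjusted p = 0.269). As a share of all RPKM in a library, the 10 genes together made up 0.457 to 0.713% at day 3 and 1.62 to 2.19% at day 7. The RPKM of all genes summed to less at day 7 (195671 to 240240) than at day 3 (263593 to 316796), which enlarges the later share. Summed RPKM of the 10 genes was 1447 to 1972 at day 3 and 3869 to 4624 at day 7. Col1a1 (chromosome 11, 94936224 to 94953042) went from 615, 410, 445 and 578 to 932, 962, 1258 and 922 RPKM (a ratio of means of 1.99, limma adjusted p = 0.000464), with mouse A10 the highest at day 7. Col3a1, the collagen of early and elastic scar, was at a mean of 690 ± 72.7 and then 1708 ± 79.5 RPKM (SD, n = 4; 1.31 ± 0.15, limma adjusted p = 4.04e-07). Type V collagen has 3 chain genes and they did not move together. Col5a1 (chromosome 2, 27886425 to 28039514) went from 127, 101, 111 and 134 to 192, 214, 278 and 179 RPKM (0.85 ± 0.15, limma adjusted p = 6.28e-05), and Col5a2 (chromosome 1, 45374321 to 45503282) from 124, 104, 123 and 120 to 351, 334, 376 and 317 RPKM (1.54 ± 0.12, limma adjusted p = 3.35e-09). Both separated the days completely. Col5a3 (chromosome 9, 20770050 to 20815067) fell from 23.4, 21.3, 22.3 and 22.1 to 7.99, 8.27, 12 and 12.4 RPKM (-1.08 ± 0.24, limma adjusted p = 0.000713), again without overlap. Col11a1, the chain of type XI collagen, a close relative of type V that nucleates fibrils in cartilage, rose from 2.74, 1.48, 1.73 and 1.78 to 31.3, 33, 28.4 and 19.2 RPKM (3.29 ± 0.27, limma adjusted p = 9.09e-09).

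Ratios of 2 genes within a library do not depend on how the library was scaled, and 10 were tested with 2-sided exact permutation tests of 4 against 4 mice, whose smallest possible p is 0.0286. The log2 ratio of Col5a3 to Col5a1 fell from -2.4 ± 0.154 to -4.42 ± 0.383 (SD, n = 4; exact p = 0.0286, adjusted over 10 ratios 0.0408), and that of Col5a2 to Col5a1 went from 0.00108 ± 0.132 to 0.694 ± 0.198 with the same p. Col1a2, the other chain of type I collagen, gained 0.45 on Col1a1, Col12a1, which coats type I fibrils, gained 0.89 on Col1a1, and Col5a1 lost 0.46 to Col3a1 (a log2 change of -0.46), each with exact p = 0.0286 and adjusted p = 0.0408. The gain of 0.31 of Col3a1 on Col1a1 did not pass (exact p = 0.0571, adjusted p = 0.0714). In the remote region, where ratios were not tested, mean log2 ratios to Col1a1 moved the same way from day 3 to day 7. They went from -0.21 to 0.50 for Col1a2, from -4.79 to -3.56 for Col12a1 and from 1.81 to 2.75 for Col3a1. Col5a2 to Col5a1 went from 0.04 to 0.54 there, Col5a1 to Col3a1 from -2.99 to -3.18, and Col5a3 to Col5a1 from -1.60 to -1.48. These are ratios of RPKM and not of protein chains.

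The other collagen families differed. Of the network-forming, beaded and fibril-associated collagens, 9 of 10 tested were higher and none was lower (median 1.80), with Col14a1, a fibril-associated collagen, at means of 27.5 ± 2.62 and 166 ± 8.43 RPKM and Col8a1 at 74.5 ± 6.88 and 313 ± 27.6. Of 9 basement membrane collagens 5 rose and none fell (median 0.53; 0.17 over genes with a mean of 5 RPKM, and 1.27 with limma voom on recovered reads), but the abundant chains Col4a1 and Col4a2 did not pass: Col4a1 stood at 243, 257, 258 and 286 RPKM at day 3 and at 264, 290, 336 and 323 RPKM at day 7 (0.21 ± 0.14, limma adjusted p = 0.187). The days overlapped. Col4a5, a chain of the minor type IV network, rose by 1.20 (limma adjusted p = 5.19e-09).

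Enzymes that modify, fold and cross-link collagen were mostly higher, 19 of 29, with 3 lower and a median of 0.36; the count of lower genes was 1 without day 3 mouse A7 or day 7 mouse A7 or A12, and 7 without day 7 mouse A10. Lox, the lysyl oxidase that starts cross-linking, went from 164, 95, 112 and 113 to 398, 351, 336 and 300 RPKM (1.53 ± 0.18, limma adjusted p = 5.62e-07). Adamts2, which trims the amino end of procollagen, rose by 1.74 and Plod2, the lysyl hydroxylase of collagen telopeptides, by 1.72. Serpinh1, the collagen chaperone HSP47, was at 457, 409, 463 and 470 RPKM at day 3 and at 374, 470, 650 and 448 RPKM at day 7 (0.08 ± 0.17, limma adjusted p = 0.698). It was high on both days, and the groups overlapped. Loxl2 likewise overlapped, with means of 38.3 ± 2.81 and 44.3 ± 8.2 RPKM. The prolyl hydroxylase subunit P4ha3 rose by 1.07, while P4ha2 fell by 0.38 (limma adjusted p = 0.0146).

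Small leucine-rich proteoglycans, which decorate collagen fibrils, rose in 10 of 11 tested genes with none lower (median 2.38). Dcn (decorin) had means of 152 ± 15.4 and 555 ± 53.8 RPKM, Lum (lumican) 52 ± 13.3 and 304 ± 58.4, Aspn (asporin) 39.1 ± 10.7 and 402 ± 104, and Ogn (osteoglycin) 41.4 ± 6.34 and 299 ± 71 RPKM (SD, n = 4). None of these overlapped between days. Aspn also rose in the remote region, by 1.23 (limma adjusted p = 0.000187), and the scar step exceeded the remote step by 2.10 ± 0.33 (limma adjusted p = 3.18e-05).

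Matricellular and adhesive glycoproteins, which signal to cells rather than bear load, rose in 15 of 20 genes and fell in 3 (median 1.48). Postn (periostin, made by activated fibroblasts) went from 135, 153, 98.9 and 193 to 1109, 1104, 1088 and 782 RPKM (2.83 ± 0.20, limma adjusted p = 1.09e-09). All day 7 libraries were above all day 3 libraries, and mouse A12 was the lowest of them. Thbs2, a thrombospondin, rose by 3.34 and Cthrc1, a secreted marker of activated fibroblasts, by 2.11. The 3 that fell were Tnc, Spp1 and Tgfbi. Tnc (tenascin C), an early wound matrix protein, fell from 155, 182, 121 and 221 to 75.5, 74.5, 131 and 52.7 RPKM (-1.06 ± 0.22, limma adjusted p = 0.000408), and Spp1 (osteopontin), made by macrophages in infarcts, from 644, 795, 1356 and 831 to 236, 303, 654 and 261 RPKM (-1.39 ± 0.33, limma adjusted p = 0.00137). Both overlapped between the days. Both also fell in the remote region (-1.14 and -1.52), where the call of Tnc was lost when rescaled to recovered reads (-0.97, limma adjusted p = 0.0619), and the difference between the regions' steps was not called (limma adjusted p = 0.913 and 0.827).

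Of the elastic fibre genes 13 of 17 rose and 1 fell (median 1.13). Fbn1 (fibrillin, the microfibril scaffold) had means of 134 ± 5.23 and 367 ± 15.8 RPKM and Ltbp2, a latent TGF-beta binding protein found on microfibrils, 36 ± 3.37 and 156 ± 15 RPKM. Emilin2 fell by 1.34 (limma adjusted p = 1.94e-05). Mfap5 rose in both regions, by 1.13 in scar and by 1.01 in the remote region.

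Of 30 proteases of the matrix and their inhibitors 11 were higher and 12 lower, against 27.7% and 32.7% of all genes. Mmp2, the gelatinase of fibroblasts, rose from 26, 17.9, 17.6 and 19 to 165, 158, 146 and 160 RPKM (2.92 ± 0.15, limma adjusted p = 1.67e-11). Mmp9, the gelatinase of neutrophils, fell from 6.8, 8.56, 14.1 and 4.63 to 0.299, 0.373, 0.586 and 0.64 RPKM (-2.60 ± 0.18, limma adjusted p = 1.09e-09). The gap between these 2 enzymes widened, and the days did not overlap in either. Mmp3 fell by 1.93 and the plasminogen activator receptor Plaur by 1.61, while Ctsk, a collagen-cleaving cathepsin, rose by 1.84. Among inhibitors, Timp1 fell from 442, 283, 421 and 317 to 103, 115, 195 and 104 RPKM (-1.52 ± 0.21, limma adjusted p = 4.26e-06) and Timp2 rose from 24.6, 23, 21.9 and 24.4 to 93.9, 89.3, 87.1 and 76.9 RPKM (1.84 ± 0.12, limma adjusted p = 4.23e-10). The log2 ratio of Timp2 to Timp1 went from -3.94 ± 0.324 to -0.524 ± 0.445 (SD, n = 4; exact permutation p = 0.0286, adjusted p = 0.0408). Timp3, which is bound to matrix, rose by 2.48.

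The TGF-beta pathway drives fibroblasts to make matrix. It had 10 of 21 genes higher and 5 lower (7 and 5 when rescaled to recovered reads), against 27.7% and 32.7% of all genes. Its ligands moved in opposite directions. Tgfb1 (chromosome 7, 25687002 to 25705077) fell from 14.6, 14.2, 15.2 and 12.2 to 4.57, 4.87, 5.73 and 7.01 RPKM (-1.21 ± 0.09, limma adjusted p = 2.84e-09), Tgfb3 (chromosome 12, 86056745 to 86079041) rose from 26.6, 23, 18.7 and 24.4 to 103, 99.2, 101 and 113 RPKM (2.13 ± 0.14, limma adjusted p = 4.08e-10), and Tgfb2, at means of 11 ± 3.44 and 12.8 ± 1.05 RPKM, did not pass (limma adjusted p = 0.211). The log2 ratio of Tgfb3 to Tgfb1 went from 0.717 ± 0.306 to 4.25 ± 0.216 (SD, n = 4; exact permutation p = 0.0286, adjusted p = 0.0408). Skil, an intracellular brake on the pathway that the pathway itself induces, rose by 0.88, and the signal transducer Smad3 did not pass (limma adjusted p = 0.317).

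Most tested genes of both kinds of fibroblast were higher at day 7. Of 23 genes of activated fibroblasts and myofibroblasts 16 rose and 3 fell (median 0.98); of 22 genes of resting cardiac fibroblasts 16 rose and 1, Ly6a, fell (median 1.17). Acta2, smooth muscle actin, the usual myofibroblast marker, went from 213, 237, 166 and 220 to 246, 318, 508 and 241 RPKM (0.59 ± 0.21, limma adjusted p = 0.0208). This call was lost without day 3 mouse A7 (0.49, limma adjusted p = 0.0717) and without day 7 mouse A10 (0.36, limma adjusted p = 0.0969). Tagln, another contractile protein, rose by 1.30. Among genes of resting fibroblasts, Dpt (dermatopontin) had means of 26.9 ± 2.63 and 163 ± 12.9 RPKM, Tcf21, a transcription factor of the fibroblast lineage, 7.83 ± 1.18 and 28.7 ± 6.81, and Pi16, a marker of a perivascular subset, 2.57 ± 0.34 and 21.9 ± 6.47 RPKM. Pdgfra, the receptor most used to mark cardiac fibroblasts, rose only by 0.44 (limma adjusted p = 0.00364), with overlap of the days. Summed RPKM of the resting list went from 358 to 396 at day 3 to 782 to 912 at day 7. The part of fibroblast content in the rise of the matrix genes above was not tested.

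Genes of late scar, tendon, cartilage and bone had 16 of 19 higher and 1, Prg4, lower. Their median of 2.65 was the highest of the lists, except that with a pseudocount of 5 RPKM it was 1.94, below the 2.23 of secreted Wnt modulators. This list was drawn up with the later scar of these hearts known and is no independent evidence. Scx, a transcription factor of tendon, rose from a mean of 2.89 ± 0.317 to 15.2 ± 4.96 RPKM, Sox9, a factor of cartilage, from 4.04 ± 0.584 to 10.4 ± 1.73, and Thbs4, a thrombospondin of tendon, from 8.27 ± 3.89 to 45 ± 11.2 RPKM. Prg4, the lubricant of joint surfaces, fell from 6.86 ± 0.94 to 1.07 ± 0.409 RPKM. All 7 tested genes that encode secreted Wnt ligands or antagonists rose (median 2.39), of 17 listed. The count was 6 when rescaled to recovered reads and 5 without day 3 mouse A8. Sfrp1 went from 34.6, 26.7, 26.9 and 23.4 to 155, 151, 156 and 135 RPKM and Dkk3 from 6, 3.9, 3.57 and 5.56 to 60.8, 55.9, 49.7 and 49.4 RPKM, both without overlap. Wnt9a, the weakest at 0.30, did overlap, and its call was lost without day 3 mouse A8 or day 7 mouse A9 (0.26 each).

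**Figure D3:**
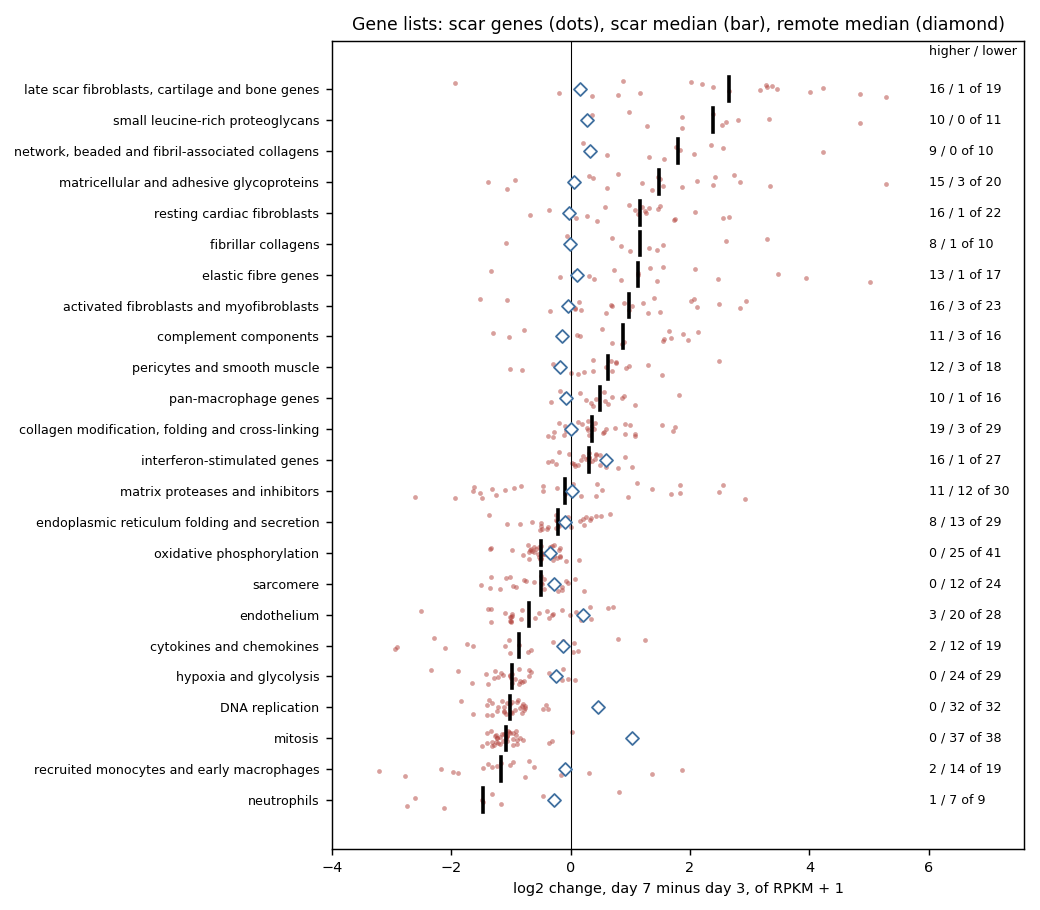
Change from day 3 to day 7 (x axis, log2 of RPKM + 1) of the genes of 24 lists (rows); dots are scar genes, black bars the scar median and open diamonds the remote median, with the numbers called higher and lower in scar at the right. Late scar genes have a scar median of 2.65 and neutrophil genes one of -1.46 (1.94 and -0.62 with a pseudocount of 5 RPKM), and for mitosis the remote median (1.03) is on the other side of 0 from the scar median (-1.09).

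Leukocyte genes did not fall as a block. Of 9 tested neutrophil genes (18 listed) 7 fell and 1, G0s2, which fat cells and myocytes also express, rose (median -1.46). S100a8, a subunit of the calcium-binding protein calprotectin, fell from 22.7, 6.03, 15.6 and 6.83 to 1.25, 1.29, 3.82 and 1.41 RPKM (-2.12 ± 0.31, limma adjusted p = 1.13e-05) and the chemokine receptor Cxcr2 from 2.97, 1.81, 3.59 and 2.05 to 0.102, 0.279, 0.449 and 0.335 RPKM. Neither overlapped between days. Of 19 genes of recruited monocytes and early macrophages 14 fell and 2 rose (median -1.16); the 2 that rose, Fn1 and Thbs1, encode matrix glycoproteins, and with them the summed RPKM of the list went up, from 709 to 1021 at day 3 to 1240 to 1934 at day 7. Ccr2, the receptor for Ccl2, fell from a mean of 25.2 ± 4.27 to 14.6 ± 3.37 RPKM (limma adjusted p = 0.00115), and F13a1, a coagulation factor chain of macrophages, by 1.97.

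Of 16 genes shared by all macrophages 10 rose, or 8 when rescaled to recovered reads, and 1, Fcgr1, fell (median 0.49). The days of Fcgr1 overlapped, and its call was lost without any of 4 mice (day 3 A5 or A7, day 7 A7 or A12), with quantile normalization (limma adjusted p = 0.0521) and with only the 8 libraries of days 3 and 7 (limma adjusted p = 0.0747). The list's summed RPKM went from 1191 to 1766 at day 3 to 1874 to 2904 at day 7. Adgre1, the F4/80 antigen, went from 30.7, 31.7, 34.8 and 32.2 to 66.6, 60.1, 84.9 and 67 RPKM (1.07 ± 0.11, limma adjusted p = 1.56e-07), and Csf1r, the receptor on which macrophages depend, from 32.8, 35.7, 41.5 and 32.3 to 47.3, 53.2, 66.5 and 54.3 RPKM (0.62 ± 0.12, limma adjusted p = 0.000232). Ms4a7 rose by 1.82. Of 12 resident-type genes 5 were higher and 4 lower, against 27.7% and 32.7% of all genes. Gas6, a bridge to dying cells that fibroblasts also make, rose by 1.99, while Cd163, a scavenger receptor, fell by 0.52. Lyve1 and Folr2 did not pass (limma adjusted p = 0.425 and 0.201). Of 20 genes of lipid-associated macrophages 8 were higher and 7 lower. Apoe, the lipid carrier, was at means of 309 ± 41.9 and 1083 ± 195 RPKM and Gpnmb at 22.6 ± 8.1 and 55.6 ± 11.3 RPKM. In the remote region 4 of the 20 rose and 9 fell, or 4 and 3 when rescaled to recovered reads. At day 3 the list summed to 2215 to 3433 RPKM in scar and 2037 to 2287 RPKM in the remote region. The genes shared by all macrophages summed to only 381 to 450 RPKM there. Which cells expressed the lipid-associated list was not tested. The ratio of Mrc1 to Ccr2, a rough balance of resident against recruited cells, changed by 0.35 and did not pass (exact permutation p = 0.257, adjusted p = 0.286). Only 4 of 25 lymphocyte genes were tested, and none passed in limma (1 did at an unadjusted p under 0.05); immunoglobulin kappa, Igkc, ranged widely, at 2.83, 14.7, 11.2 and 11.6 RPKM at day 3 and 33.8, 50.7, 3.43 and 30.8 RPKM at day 7.

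Of 19 tested cytokines and chemokines 12 fell and 2 rose (median -0.86). Il1rn, the natural antagonist of interleukin 1, fell by 0.71 and Csf1, the growth factor of macrophages, by 0.67. Il1b itself, at 8.62, 8.31, 14.2 and 5.78 RPKM at day 3 and 4.99, 4.77, 3.87 and 2.35 RPKM at day 7, fell by 1.01 (limma adjusted p = 0.0242), a call lost without day 3 mouse A7 (-0.80, limma adjusted p = 0.0869) or day 7 mouse A12 (-0.83, limma adjusted p = 0.0748). Il6, a major early cytokine of wounds, was low on both days, with means of 2.88 ± 0.294 and 3.01 ± 0.627 RPKM (limma adjusted p = 0.834). Cxcl16 rose, from a mean of 15.1 ± 1.46 to 37.2 ± 3.63 RPKM. In antigen presentation by MHC class II 6 of 10 tested genes rose and 1 fell (median 0.63); Cd74, the invariant chain, went from 88.1, 124, 147 and 97.4 to 210, 218, 220 and 172 RPKM and H2-Aa from 32.8, 46.4, 56.6 and 38.2 to 120, 108, 108 and 72.6 RPKM, both without overlap.

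Complement genes, part of innate immunity and of the clearance of debris, rose in 11 of 16 and fell in 3 (median 0.88). C1qa, made by macrophages, went from a mean of 138 ± 21.2 to 253 ± 54.2 RPKM, C1s1, a protease of the same complex made by fibroblasts and liver, from 7.96 ± 1.6 to 33.8 ± 6.23, and C3, the central component, from 35.8 ± 11.9 to 115 ± 65.3 RPKM. In the remote region C3 fell by 1.04 (limma adjusted p = 0.0278), and the 2 steps differed by 2.60 ± 0.29 (limma adjusted p = 4.66e-07). The inhibitor Serping1 rose as well, by 2.13. Cfp, properdin, which stabilises the alternative pathway and comes from neutrophils and monocytes, fell by 1.30.

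Genes of cell division fell almost without exception. All 32 tested genes of DNA replication fell in scar (median -1.01), and 37 of 38 genes of mitosis fell (median -1.09), against 32.7% of all genes. The exception was Pttg1 (securin, which holds sister chromatids together), at means of 6.11 ± 0.473 and 6.3 ± 0.856 RPKM (limma adjusted p = 0.718). In the remote region of the same hearts the same lists went the other way: 24 of 32 replication genes and 34 of 38 mitosis genes rose and none fell (medians 0.46 and 1.03). The steps differed in 32 of 32 and 37 of 38 genes when both regions of each heart were fitted together (limma, 40 libraries, mouse as block), against 22.1% of all genes lower and 23.8% higher in scar step than in remote step. Over all genes, 462 (4.06%) fell in scar, rose in the remote region and differed in step, 214 (1.88%) did the reverse, and 24 replication and 34 mitosis genes were among the 462. Rescaled to recovered reads, 1438 genes had the higher and 4824 the lower step in scar, 965 (8.47%) fell in scar, rose in the remote region and differed in step, and 47 (0.413%) did the reverse. On that scale the steps still differed in 32 of 32 replication and 37 of 38 mitosis genes, and 28 and 36 rose in the remote region.

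The promoters of such genes carry short elements that cell cycle factors read, and stretches of 5 promoters are printed so that these can be seen beside the values. All sequences are from RefSeq, build GRCm38.p6, read 5′ to 3′ in the direction of transcription from a window of 250 bases before to 50 after the start. In the first 3, of mitosis genes, capitals mark the CHR (cell cycle genes homology region), searched as TTTGAA, and the CCAAT box, searched as CCAAT, on both strands.
Top2a (chr11:99024192-99024431, minus strand): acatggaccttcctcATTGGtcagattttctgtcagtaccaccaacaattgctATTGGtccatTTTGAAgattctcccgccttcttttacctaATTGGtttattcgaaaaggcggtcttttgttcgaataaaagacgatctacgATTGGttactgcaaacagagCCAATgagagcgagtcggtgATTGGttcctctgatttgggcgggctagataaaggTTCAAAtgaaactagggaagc
Cdk1 (chr10:69352913-69353135, minus strand): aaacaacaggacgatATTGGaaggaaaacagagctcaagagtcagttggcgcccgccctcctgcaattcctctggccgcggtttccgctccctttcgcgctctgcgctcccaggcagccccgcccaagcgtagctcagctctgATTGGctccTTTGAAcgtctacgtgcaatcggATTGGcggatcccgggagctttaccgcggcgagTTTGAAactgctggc
Cdc20 (chr4:118437344-118437411, minus strand): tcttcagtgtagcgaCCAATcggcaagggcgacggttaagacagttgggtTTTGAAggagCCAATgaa
In the next 2, of replication genes, capitals mark an E2F-like site, searched as TTTCCCGC, TTTGGCGC or TTTCGCGC on both strands.
Mcm5 (chr8:75109341-75109382, plus strand): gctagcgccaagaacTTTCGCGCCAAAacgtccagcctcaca
Cdc6 (chr11:98907998-98908035, plus strand): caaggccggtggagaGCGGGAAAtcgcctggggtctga

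A CHR was present in 22 of 32 mitosis promoters available (68.8%), against 11.5% of all 8550 promoters matched to tested genes, and a CHR together with a CCAAT box in 20 of 32 (62.5%), against 4.75%. E2F-like letters were present in 9 of 26 replication promoters (34.6%), against 3.65% of all. The lists cannot show whether the letters separate genes that fell from genes that did not, because nearly every gene in them fell. All 22 mitosis genes with a CHR fell (median -1.08), and so did 9 of 10 without one (median -0.94). All 9 replication genes with an E2F-like site fell (median -1.12), and so did all 17 without (median -1.02). A match of letters is a description and not a tested binding site.

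Top2a, the topoisomerase that untangles chromosomes, fell in scar from 21.3, 24.7, 23.1 and 25.4 to 7.29, 9.11, 12.4 and 7.51 RPKM (-1.31 ± 0.13, limma adjusted p = 7.99e-08). In the remote region it was at 3.12, 4.39, 6.46 and 1.63 RPKM in day 3 mice A4, A5, A7 and A8 and at 14.5, 8.35, 16.3 and 15.1 RPKM in day 7 mice A7, A9, A10 and A12 (1.63 ± 0.32, limma adjusted p = 0.0018). The scar thus began above the remote region and ended within or just under its day 7 range. Cdk1, the kinase that starts mitosis, fell in scar from 9.55, 11.7, 11.3 and 13.3 to 4.71, 5.45, 7.9 and 4.01 RPKM and was at 0.924, 1.42, 3.26 and 0.633 and then 6.65, 3.94, 7.49 and 6.92 RPKM in the remote region. The 2 steps differed by -2.54 ± 0.31 (limma adjusted p = 2.11e-06). Cdc20, which triggers chromosome separation, fell from 10.6, 13.7, 14.6 and 14.5 to 3.93, 4.55, 9.59 and 3.78 RPKM in scar, where mouse A10 was the highest at day 7. Mki67, the Ki-67 antigen used to count cycling cells, fell by 1.48 in scar and rose by 1.50 in the remote region. Mcm5, a subunit of the replicative helicase, fell from 11.1, 13.5, 13 and 11.7 to 2.51, 2.83, 4.76 and 3.27 RPKM (-1.64 ± 0.12, limma adjusted p = 1.54e-09), and Cdc6, which loads that helicase, from 2.44, 2.56, 2.96 and 2.67 to 0.642, 0.651, 0.745 and 0.68 RPKM (-1.12 ± 0.05, limma adjusted p = 9.8e-12). Neither overlapped between days. Summed over the mitosis list, scar went from 318 to 385 RPKM at day 3 to 119 to 203 RPKM at day 7, and the remote region from 78.6 to 124 to 154 to 232 RPKM. Myc, a growth-promoting transcription factor, fell in scar by 1.56 (limma adjusted p = 2.49e-08), and the cell cycle inhibitor Cdkn1a fell too, by 0.70.

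**Figure D4:**
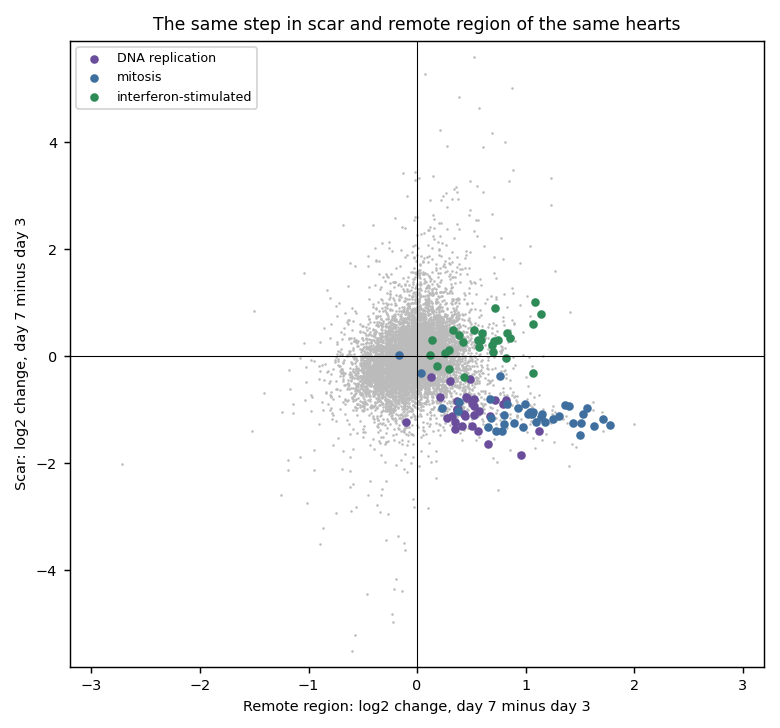
Change from day 3 to day 7 in scar (y axis) against that in the remote region of the same hearts (x axis), both as log2 of RPKM + 1; each dot is 1 of 11390 genes. Replication and mitosis genes lie at the lower right, except for Pttg1 and Pold1, while interferon-stimulated genes lie mostly to the right of 0, near or above the horizontal line.

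Of 27 interferon-stimulated genes, the antiviral set that nucleic acid sensors also switch on in sterile injury, 16 rose in scar (median 0.30) with 1, Oasl1, lower, and 19 rose in the remote region with none lower (median 0.59). Rescaled to recovered reads, 10 rose and 3 fell in scar, and 10 rose without day 3 mouse A5. The steps differed in 7 genes, or in 17 when rescaled, all with the lower step in scar. Their common element, the interferon-stimulated response element, is shown in 2 promoters, where capitals mark its core, searched as GAAANNGAAA on both strands.
Ifit1 (chr19:34640770-34640828, plus strand): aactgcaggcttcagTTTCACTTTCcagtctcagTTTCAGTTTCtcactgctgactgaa
Ifit3 (chr19:34583358-34583431, plus strand): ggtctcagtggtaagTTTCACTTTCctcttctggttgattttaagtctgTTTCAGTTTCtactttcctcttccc
The core was present in 10 of 18 promoters of the list (55.6%), against 3.1% of all, and 6 of those 10 genes rose in scar, as did 4 of the 8 without it. Ifit3, an RNA-sensing antiviral protein, went from 9.08, 8.71, 6.62 and 10.4 to 18.9, 21.8, 17.2 and 16.4 RPKM in scar (1.02 ± 0.15, limma adjusted p = 8.42e-06) and rose by 1.09 in the remote region (limma adjusted p = 0.00508). Ifit1, of the same family, rose by 0.80 in scar and 1.14 in the remote region. Rsad2 (viperin) went apart: it rose by 1.07 in the remote region and did not pass in scar (-0.32, limma adjusted p = 0.109), and the steps differed by -1.39 ± 0.24 (limma adjusted p = 7.27e-05). Rescaled to recovered reads, Rsad2 was called lower in scar (-0.40, limma adjusted p = 0.0463).

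Genes of folding and secretion in the endoplasmic reticulum fell more often than they rose, 13 against 8 of 29 (median -0.21). Rescaled to recovered reads, 4 rose, as they did without day 3 mouse A5, and 5 rose without day 3 mouse A8 or day 7 mouse A9 or A10. The endoplasmic reticulum stress element (ERSE), a CCAAT box followed after 9 bases by CCACG, is shown in capitals in 2 of its promoters.
Hspa5 (chr2:34772010-34772058, plus strand): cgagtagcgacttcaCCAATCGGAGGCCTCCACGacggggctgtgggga
Hsp90b1 (chr10:86705518-86705671, minus strand): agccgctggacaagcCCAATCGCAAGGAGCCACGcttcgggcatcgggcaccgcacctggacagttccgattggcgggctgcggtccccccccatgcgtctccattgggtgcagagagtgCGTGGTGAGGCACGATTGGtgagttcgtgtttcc
It was present in 7 of 24 promoters of the list (29.2%), against 0.164% of all, that is 14 genes. Of the 7, 6 fell in scar, Hspa5, Hsp90b1, Calr, Canx, Pdia6 and Creld2, and Dnajc3 rose (median -0.48), while of the 17 without it 3 fell and 7 rose (median 0.01). These splits were not tested. Hspa5, the chaperone BiP, fell from 155, 139, 152 and 140 to 93.8, 110, 109 and 98.1 RPKM (-0.51 ± 0.16, limma adjusted p = 0.00837), and Hsp90b1, the chaperone GRP94, from 183, 199, 202 and 161 to 129, 141, 151 and 147 RPKM (-0.39 ± 0.12, limma adjusted p = 0.0113). The falls were small, and neither gene overlapped between the days. Creb3l1, a membrane-bound transcription factor of collagen-secreting cells, fell by 1.36 and its relative Creb3l2 rose by 0.66.

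Genes of hypoxia and glycolysis fell together, 24 of 29 with none higher (median -0.99); 10 also fell in the remote region (median -0.24), or 3 when rescaled to recovered reads, and the scar step was the lower one in 22. Ldha, lactate dehydrogenase, fell from 118, 114, 136 and 118 to 55.2, 61.1, 68.2 and 58.4 RPKM (-0.99 ± 0.15, limma adjusted p = 1.77e-05), Pkm, pyruvate kinase, from 376, 365, 426 and 332 to 107, 138, 169 and 148 RPKM, and Slc2a1, the basal glucose transporter, from 17.5, 13.7, 20.2 and 14.5 to 5.45, 4.95, 7.06 and 5.22 RPKM. All 3 separated the days. Egln3, an oxygen-sensing hydroxylase induced by low oxygen, fell by 2.34 and Vegfa, the vessel growth factor, by 1.26. Pfkm, the muscle form of phosphofructokinase, did not pass (limma adjusted p = 0.717). The neutrophil, monocyte and cell cycle lists fell over the same interval, and their part in this fall was not tested.

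Of immediate early and acute stress genes 12 of 22 fell and 2 rose (median -0.41). Jun, a subunit of the AP-1 factor, went from a mean of 28.9 ± 2.56 to 17.9 ± 3.97 RPKM, while Gadd45b rose from 9.77 ± 1.69 to 20.4 ± 3.56 RPKM and Atf3 did not pass (limma adjusted p = 0.0984).

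Genes of myocytes fell more often than they rose in both regions. Of 24 sarcomere genes 12 fell in scar and 9 in the remote region, with none higher in either (medians -0.50 and -0.28). In scar the count was 9 without day 3 mouse A4 and 16 without day 3 mouse A7. Rescaled to recovered reads, 14 fell in scar and 6 in the remote region (remote median -0.11). Tnnc1, cardiac troponin C, fell from 285, 326, 215 and 360 to 92.5, 136, 67.4 and 128 RPKM (-1.50 ± 0.28, limma adjusted p = 0.000153). Myh6, the main myosin heavy chain of the adult mouse heart, was at 167, 327, 113 and 375 RPKM at day 3 and 221, 205, 94 and 301 RPKM at day 7 in scar, which overlapped (limma adjusted p = 0.635). Its levels varied widely between scars of 1 day. As a share of all RPKM in a scar library, sarcomere genes made up 0.959 to 1.91% at day 3 and 0.99 to 1.53% at day 7. Of 41 nuclear genes of oxidative phosphorylation 25 fell in scar and 19 in the remote region with none higher (10 in the remote region and 1 higher when rescaled to recovered reads). Of 36 genes of fatty acid oxidation and the citric acid cycle 23 and 18 fell, or 29 and 13 when rescaled. Cox6a2, the heart form of a cytochrome oxidase subunit, fell by 1.35 in scar and by 0.59 in the remote region. Mitochondrially encoded genes took 15.3 to 19.7% of summed RPKM in scar at day 3 and 5.61 to 10.6% at day 7, against 35.3 to 44.8% in the remote libraries of both days. Of 16 genes induced in stressed myocytes 9 fell and 2 rose: Nppb, brain natriuretic peptide, fell from 697, 391, 549 and 415 to 244, 189, 194 and 220 RPKM (-1.24 ± 0.28, limma adjusted p = 0.000891), whereas Nppa, atrial natriuretic peptide, went from 1219, 1045, 1026 and 1033 to 2227, 1776, 1229 and 1753 RPKM (0.66 ± 0.21, limma adjusted p = 0.012). The pair thus moved in opposite directions, each without overlap.

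Vessel genes parted by layer. Of 28 endothelial genes 20 fell in scar and 3 rose (median -0.71), while 10 rose and 1 fell in the remote region (16 and 0 when rescaled to recovered reads), and the scar step was the lower in 21. Summed, they went from 647 to 786 RPKM to 413 to 446 RPKM in scar. Cdh5, the cadherin of endothelial junctions, fell from 81.5, 89.6, 85.7 and 91.3 to 29.6, 29.6, 35 and 42.6 RPKM (-1.34 ± 0.11, limma adjusted p = 8.07e-09) and Pecam1 from 42.1, 51, 51.9 and 52.6 to 22.6, 24.1, 23.8 and 26.1 RPKM (limma adjusted p = 2.57e-08). In the remote region both rose, by 0.41 and 0.47. Apln, expressed by sprouting tip cells, fell by 2.50 in scar and rose by 0.75 in the remote region (limma adjusted p = 0.0247). Plvap and Vwf did not pass in scar (limma adjusted p = 0.565 and 0.174). Of 18 genes of pericytes and smooth muscle 12 rose and 3 fell (median 0.63). Their summed RPKM in scar overlapped between the days, at 885 to 1125 at day 3 and 971 to 1419 at day 7. Rgs5, a pericyte marker, went from 37.1, 40.6, 36.2 and 55.1 to 143, 118, 102 and 129 RPKM (1.53 ± 0.14, limma adjusted p = 3.85e-08), and Myh11, the smooth muscle myosin, from 7.06, 8.29, 5.68 and 6.89 to 11.1, 13.8, 14.6 and 17.1 RPKM (0.92 ± 0.14, limma adjusted p = 1.12e-05). Kcnj8, another pericyte gene, did not pass (limma adjusted p = 0.417). Acta2 and Tagln stand in this list as well as among the myofibroblast genes.

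The genes that moved between days 3 and 7 took different courses afterwards. Of the 412 genes that rose by 1 or more on the log2 scale, 176 had their highest scar mean on day 7, 44 on day 14, 102 on day 21 and 90 on day 42. Of the 399 that fell by as much, 118 had their lowest scar mean on day 7, and 120 on each of days 21 and 42. C1qtnf3 was transient, with scar means of 0.104, 57.5, 8.19, 3.1 and 1.56 RPKM on days 3, 7, 14, 21 and 42. Acan had the same shape, at 15.3 RPKM on day 7 and 2.34 RPKM on day 42. Eln stayed near its day 7 level on day 14 (165 ± 66.2 and 156 ± 29.5 RPKM) and was at 38.6 ± 11.1 RPKM on day 42. Comp went on to 385 ± 60.8 RPKM on day 14 and 584 ± 93.6 RPKM on day 21, and Sfrp2 to 372 ± 41.6 RPKM on day 14. Arg1 and Chil3, already low on day 7, were at 0.249 ± 0.0885 and 0.0543 ± 0.0114 RPKM on day 14. These courses are means of 4 other mice on each day and were not tested.

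**Figure D5:**
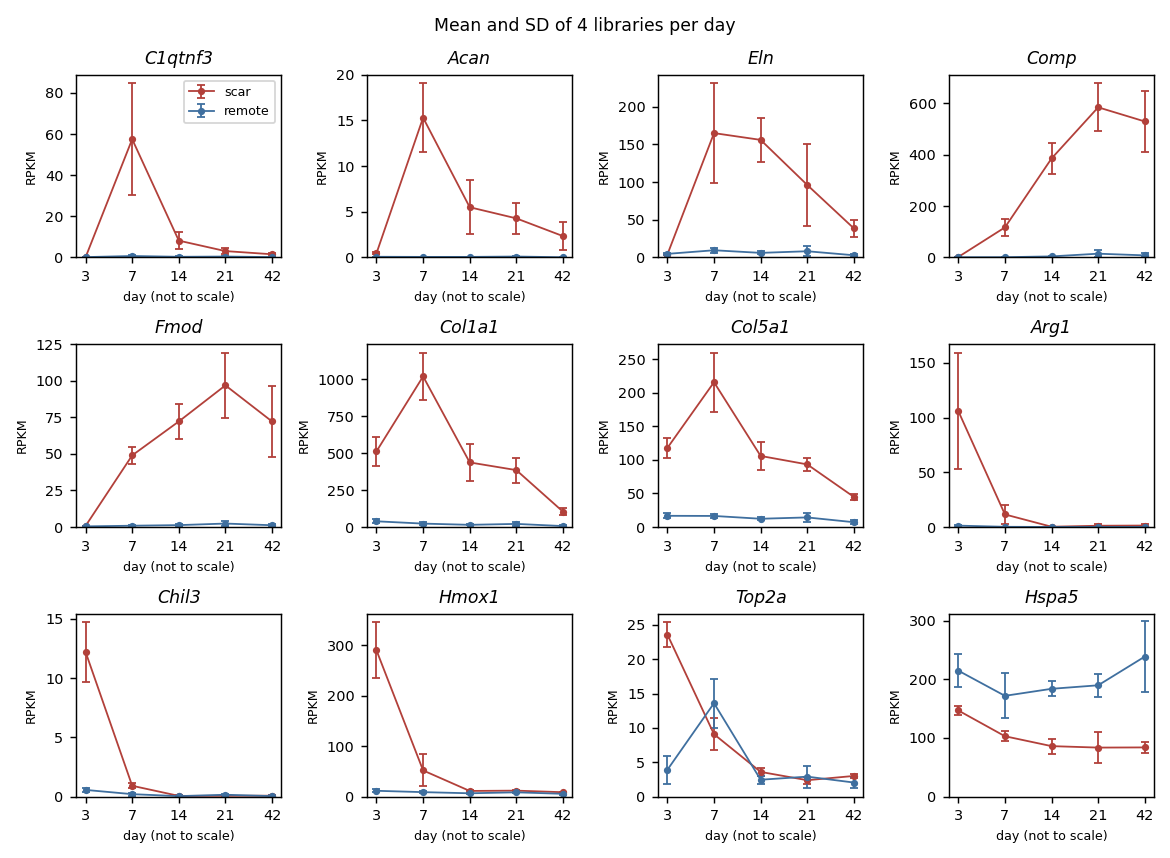
Mean and SD (4 libraries a day) of RPKM (y axis) on days 3, 7, 14, 21 and 42 (x axis, not to scale) for 12 genes, scar in red and remote region in blue. C1qtnf3, Acan and Col1a1 are highest in scar on day 7, Comp and Fmod on day 21, and Arg1, Chil3, Hmox1 and Top2a on day 3.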

How the data were processed

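RNA from scar and remote region (RNeasy Mini kit, TruSeq RNA libraries, per the labels' protocols) had been sequenced, and the authors deposited 1 table of RPKM for 11450 genes in 40 libraries. STAR, edgeR and mm10 are named in the submitters' processing notes without versions or roles. For the read counter, its annotation, strand setting and scaling, nothing is stated in those sources. Steps of the RPKM gave whole reads for 11437 genes (99.9%, tolerance 0.01 read), and thus depth.

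Changes were computed on log2(RPKM + 1) with limma 3.58.1 (R 4.3.3, statmod 1.5.0; trend and robust moderation), after a filter of 1 RPKM in 4 libraries. The scar step was fitted over 20 scar libraries (15 residual degrees of freedom), the remote step over 20 remote libraries, and the difference of steps over 40 libraries with the mouse as a block; the 2 regions of a heart are from the same animal, and their deviations from the group means correlated at 0.148 to 0.54 over 20 mice. Benjamini-Hochberg adjustment was over 11390 genes. The fit was tested on simulated data. The comparison and the 45 gene lists were chosen with earlier results of these data known. Genes were named if among the 12 largest rises or falls reaching 5 RPKM in 4 libraries, if marked in a list or its extreme, if among the 6 largest differences of step in each direction, or if in a ratio, except a few that are not reported here; Calr, Canx, Creld2, Dnajc3, Pdia6 and Pold1, and the 9 promoters printed, were chosen after values were seen. RefSeq promoters (GRCm38.p6) were matched by symbol for 8550 tested genes. Alternatives covered pseudocount, filter, scaling, moderation, libraries and sex; recovered-read voom, and rescaling of the remote step and of the difference of steps, were added after seeing the data.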

Additional observations from a re-analysis of the deposited data

Results flagged for a closer look

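In 27 of 344 groups of 4 scar libraries tested, 1 library stood apart from the other 3 by more than Dixon's 95% critical share of the group's range; chance gives about 1 group in 20. Day 7 mouse A10 was such a library for Arg1 (24.7 RPKM), Hmox1 (99.1), Timp1 (195), Spp1 (654), S100a8 (3.82), S100a9 (4.85), Folr2 (7.86), Cdc20 (9.59) and Col1a1 (1258 RPKM), the highest of its day in each. Day 7 mouse A12 was the highest for Comp (167 RPKM), mt-Nd6 (111 RPKM) and ribosomal RNA-like models (7.21% of summed RPKM) and the lowest for Postn (782 RPKM), and mouse A7 stood apart for Col14a1 (178 RPKM). At day 3, mouse A7 stood apart for Apln (46.2 RPKM), Ccl2 (80), Ldha (136), Tgfbi (193) and Tagln (59.3 RPKM). Day 3 mouse A4 did so for Col8a2 (2.46 RPKM), Lum (71.9), Serping1 (38.6), Creb3l2 (17.7), Nppa (1219), Pecam1 (42.1) and Xist (70.8 RPKM), and mouse A8 for Ly6a (51.9 RPKM).

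The step from day 3 to day 7 differed between scar and remote region in 462 genes that fell in scar and rose in the remote region and in 214 that did the reverse, each by limma with a test of the difference. Rescaled to recovered reads, an alternative added after seeing the data, these counts were 965 and 47. The 6 largest differences upwards (scar step minus remote step, log2) were those of Comp (5.21), C1qtnf3 (5.07), Fmod (4.45), Eln (4.15), Col8a2 (4.02) and Fbln5 (3.66). The 6 largest downwards were those of the imprinted gene Mest (-3.28), of Apln (-3.26), of the histone genes Hist1h2bk (-3.15), Hist1h1b (-3.12) and Hist1h2bj (-3.07), and of the cyclin Ccna2 (-3.06). Mest fell in scar from 27, 23.9, 29.7 and 31.1 to 12.5, 10.6, 11.8 and 9.06 RPKM and went from 2.55, 3.39, 3.8 and 1.97 to 14.8, 9.2, 14 and 22.9 RPKM in the remote region, without overlap in either. Histone genes have near-identical copies between which the counting may split reads, so their values are uncertain.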

How the results depend on the processing

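Of 147 named genes called in scar, 143 kept call and direction in all 18 alternatives, and Acta2, Il1b, Fcgr1 and Wnt9a lost the call in 1 or more. Of the named genes not called, 7 passed in 1 or more alternatives. Rescaled to recovered reads, Atf3, Napsa and Rsad2 were called lower (limma adjusted p = 0.0372, 0.0341 and 0.0463). Folr2, Kcnj8, Napsa, Rsad2 and Tgfb2 passed without 1 scar library, and Vwf with only the 8 libraries of days 3 and 7. Of all 6880 calls, 6219 to 6880 were kept under alternatives that tested all of them, and none was called in the opposite direction. Leaving out 1 scar library gave 2900 to 3185 higher and 3420 to 3774 lower genes. Requiring a mean of 5 RPKM gave 1821 higher and 2296 lower, from fewer genes tested (6641). In the remote region, leaving out 1 library gave 781 to 1180 higher and 924 to 1655 lower genes. The remote rise held for 33 to 35 of 38 mitosis genes and for 16 to 25 of 32 replication genes without 1 remote library. For the difference of steps, no replicate block gave 2482 higher and 2301 lower in place of 2708 and 2513, and kept 4726 of 5221 calls. Rescaled to recovered reads, an alternative chosen after seeing the data for these 2 comparisons, the difference of steps gave 1438 higher and 4824 lower, with the median of all genes moving from 0.01 to -0.21, and the remote step 2800 higher and 539 lower in place of 1186 and 1656, with the median moving from -0.03 to 0.10; the cause was not tested. Pairing of days was not possible because the mice differ. The planned edgeR test was not run, as the table holds RPKM; limma voom on recovered reads, added after seeing the data, called 3078 higher and 3637 lower. Fold sizes of genes near 0 depend on the pseudocount: between 0.1 and 5 RPKM the change of C1qtnf3 ranged from 9.10 to 3.50 and that of Mmp9 from -4.07 to -1.26. At 5 RPKM the list medians were -0.62 for neutrophils, -0.64 for recruited monocytes, -0.53 for cytokines, -0.53 for replication, -0.66 for mitosis, 0.64 for activated fibroblasts and 0.36 for pericytes, and with voom that of neutrophils was -2.46. Values near 0 RPKM rest on few reads.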

Other observations

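Insulin-like growth factor genes changed within the same step: 8 of 11 rose and 1, Igfbp3, fell. Igf1, made by macrophages and fibroblasts, went from 6.91, 6.85, 5.11 and 6.33 to 24.1, 20.6, 19.6 and 23 RPKM (1.65 ± 0.12, limma adjusted p = 1.63e-09), and Igfbp3, a carrier of the growth factor, from 82, 68.8, 112 and 79.5 to 43.1, 36.4, 48.2 and 37.7 RPKM (-1.02 ± 0.24, limma adjusted p = 0.00115). Neither overlapped between days.

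Of 18 S100 and iron-handling genes 9 fell and 2 rose. Tfrc, the transferrin receptor through which dividing cells take up iron, fell from 14.7, 13.6, 9.01 and 14.1 to 3.06, 2.35, 2.33 and 2.19 RPKM (-1.98 ± 0.30, limma adjusted p = 1.88e-05) and Trf, transferrin itself, rose from 0.921, 1.2, 1.33 and 1.04 to 2.44, 3.2, 4.22 and 3.99 RPKM (1.06 ± 0.17, limma adjusted p = 4.06e-05). Red cell genes fell in 4 of 6, and in 2 without day 3 mouse A5 or A7 or day 7 mouse A9 or A12; their summed RPKM was 72.4 to 138 at day 3 and 22.3 to 94.1 at day 7.

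Other cell types gave smaller counts. In lymphatic endothelium 2 of 8 genes rose, among them the lymphatic growth factor Vegfd (means of 3.39 ± 0.311 and 8.96 ± 2.16 RPKM), and 1, its receptor Flt4, fell (8.06 ± 0.736 and 3.85 ± 0.438 RPKM). In epicardium 3 of 13 rose and 1, the retinoic acid enzyme Aldh1a2, fell (29.5 ± 5.22 and 8.11 ± 1.5 RPKM). Of 6 Schwann cell and neuron genes 3 rose and 1 fell, of 3 tested adipocyte genes 3 fell, of 5 atrial genes 3 rose, of 2 skeletal muscle genes 1 fell, and the 1 tested lung gene, Napsa, did not pass (limma adjusted p = 0.113). Of 27 genes of calcium handling and ion channels 12 fell in scar and 16 in the remote region, or 13 and 11 when rescaled to recovered reads. Some members stand in more than 1 list. Dkk3 is also in the atrial list, Tcf21 in the epicardial list, and the lowest skeletal muscle gene in the calcium handling list. These counts therefore do not stand for the named cell types alone.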
